A study of Mus musculus with 2 samples.

Results

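The ETS family is a large group of transcription factors that share a winged helix-turn-helix DNA-binding domain and recognise sites built around the core GGAA. The 10 family members described here were chosen by gene symbol and are *Ets1*, *Ets2*, *Fli1*, *Gabpa*, *Elf1*, *Elf2*, *Elk3*, *Elk4*, *Erg* and *Spi1*. All 10 are among the 21041 genes of the deposited expression table. The first 8 act in T-lineage cells, and *Erg* and *Spi1* (which encodes PU.1) are known from blood stem cells and early progenitors and are turned down as thymocytes commit to the T lineage. In thymocytes, ETS factors bind the enhancers and promoters of T-cell receptor and coreceptor genes, often side by side with RUNX factors, and the ELK factors carry growth factor and receptor signals to the genome together with SRF.

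mRNA was sequenced from double-positive (DP) thymocytes, which carry both CD4 and CD8, with 1 library per genotype, WT and *Cxxc1*-deficient. Cxxc1 binds unmethylated CpG DNA and brings the Setd1 complex, which trimethylates histone H3 lysine 4, to its targets, and the comparison asks which transcripts differ when it is missing. The WT mice of the study carried the floxed allele without Cre (*Cxxc1* fl/fl), while their label reads wild type. The deficient mice were *Cxxc1* fl/fl h*CD2*-Cre, whose Cre is active from an early thymocyte stage and in other immune cells, although the label of that library reads *Cxxc1*+/-, and the libraries were grouped here by title. The mice were 3 to 4 weeks old unless otherwise specified, and how many mice stand behind each library is not given in the sources used here. As neither genotype has a replicate, no p-value is given, and a lower value may mean fewer cells with the transcript or less of it per cell.

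The values are normalized expression values per gene, rounded to whole numbers, and behave as read numbers divided by transcript length. Among short genes with 1 annotated length, 34 of 81 in WT had values that were whole multiples of a read worth 4.06 (1 read per kb of transcript), within 0.6 of a value unit, and 30 of 82 did so in the deficient library with a read worth 4.70. Evenly spread values would match for 7.45 and 6.56 genes at these constants. The constants were picked from a grid for the largest excess of matches, so the counts of 34 and 30 are the most favourable ones. The intervals given below use these constants and the longest annotated transcript, are approximate, and cover counting error only. Over all genes with a length this amounts to approximately 1404365 reads in WT and 725077 in deficient cells. The deposited values of all genes summed to 1551994 in WT and 981677 in deficient cells, so they do not share the same sum. The 10 markers of DP cells were well expressed except *Ptcra*, with 79 in WT and 44 in deficient cells. All 10 were lower in the deficient library, as were most genes of their level. Of all genes averaging 100 or more over both libraries, 95.2% were lower. Of those averaging 50 to under 100, the band of *Ptcra*, 82.6% were lower. *Cxxc1* itself read 91 in WT and 50 in the deficient library, a ratio of 0.549 (interval 0.338 to 0.876). By qPCR the paper found almost no *Cxxc1* mRNA in deficient DP cells, and by western blot it found the protein deleted. Cre removes only some exons of the gene, and values per gene do not show which exons the reads come from. Y-linked transcripts separated the libraries, since *Eif2s3y*, *Kdm5d*, *Ddx3y* and *Uty* were listed at 0 in WT and at 17 to 67 in the deficient library, whereas *Xist* was present in both, at 2419 and 1021. Differences by the sex of the mice and by genotype cannot be told apart. Olfactory receptor genes, which thymocytes do not use, give the level of the background. Their 1122 rows had a median of 22 in WT and 24 in deficient cells, with upper quartiles of 35 and 39. Their 95th percentile in deficient cells was 57, above the value of *Cxxc1* there.

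Because Cxxc1 recognises CpG, the promoters of the family were read for this dinucleotide. In the paper, Cxxc1 signal in DP thymocytes was enriched at CpG islands, yet only a small share of its binding sites lay on them. A Cxxc1 mutant without DNA-binding activity still let deficient cells reach the DP stage there. Whether Cxxc1 binds the promoters below was not examined here. RefSeq promoters of GRCm38.p6, each 250 bases before to 50 bases after a transcription start, were matched by symbol for 7 of the 10 genes, with 13 promoters in all. *Ets1*, *Fli1* and *Spi1* had no entry. Of 3 promoters printed for their CpG content, *Ets2* belongs to the gene with the largest reduction, *Elf1* has the most CpG of the 13, and *Erg* belongs to a gene near the background. Capitals mark each CpG, and the strand shown is that of the gene. The *Ets2* promoter lies at chr16:95702157-95702456 on the plus strand, the *Elf1* promoter at chr14:79480944-79481243 on the plus strand, and the *Erg* promoter at chr16:95586544-95586843 on the minus strand.
Ets2: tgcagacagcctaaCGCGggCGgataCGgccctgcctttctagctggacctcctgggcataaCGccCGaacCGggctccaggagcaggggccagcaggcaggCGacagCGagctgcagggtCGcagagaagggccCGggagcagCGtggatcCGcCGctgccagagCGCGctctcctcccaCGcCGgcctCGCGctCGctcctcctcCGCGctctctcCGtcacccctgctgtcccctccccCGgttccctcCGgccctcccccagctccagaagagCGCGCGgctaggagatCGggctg
Elf1: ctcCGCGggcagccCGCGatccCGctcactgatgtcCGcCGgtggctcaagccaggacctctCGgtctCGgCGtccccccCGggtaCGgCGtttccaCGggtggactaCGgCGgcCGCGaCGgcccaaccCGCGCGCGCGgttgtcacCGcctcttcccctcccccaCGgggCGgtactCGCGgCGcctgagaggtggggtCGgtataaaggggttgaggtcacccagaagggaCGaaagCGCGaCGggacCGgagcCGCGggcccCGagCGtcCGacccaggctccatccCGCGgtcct
Erg: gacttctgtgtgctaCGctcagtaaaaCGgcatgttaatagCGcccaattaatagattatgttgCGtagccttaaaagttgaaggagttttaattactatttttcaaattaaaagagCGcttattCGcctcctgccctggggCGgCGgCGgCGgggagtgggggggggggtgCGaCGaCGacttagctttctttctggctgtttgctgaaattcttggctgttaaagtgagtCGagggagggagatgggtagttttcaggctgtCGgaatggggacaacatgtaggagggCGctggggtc

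The *Ets2* promoter held 30 CpG and the *Elf1* promoter 43, compared with 16 in the *Erg* promoter. Across all 32851 promoters of this length the median was 7, with quartiles of 3 and 20. These promoters were taken whether or not their genes are expressed, and no comparison with expressed genes alone was made. The *Elf2* promoters held 42 and 31, the *Elk3* promoter 31, the *Elk4* promoters 29, 34 and 27, and the *Gabpa* promoter 22, all above that upper quartile. Not every start was of this kind. The other *Elf1* promoter held 3 and the other *Erg* promoters 2 and 4. The table does not say which starts DP thymocytes use, and with 7 genes no relation between CpG number and change was examined.

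The family can in principle bind its own promoters, and the core GGAA was therefore counted on both strands. Each of the 13 promoters held at least 1 such core, as did 96.0% of all promoters, so its presence sets none of them apart. The longer site CCGGAA, which contains the core, occurred in the *Gabpa* promoter and in 1 *Elk4* promoter, 2 of 13, and in 14.9% of all promoters. The *Gabpa* promoter, at chr16:84834874-84835173 on the plus strand, is printed because it holds both this site and 5 cores in all, with capitals marking GGAA and its complement TTCC.
Gabpa: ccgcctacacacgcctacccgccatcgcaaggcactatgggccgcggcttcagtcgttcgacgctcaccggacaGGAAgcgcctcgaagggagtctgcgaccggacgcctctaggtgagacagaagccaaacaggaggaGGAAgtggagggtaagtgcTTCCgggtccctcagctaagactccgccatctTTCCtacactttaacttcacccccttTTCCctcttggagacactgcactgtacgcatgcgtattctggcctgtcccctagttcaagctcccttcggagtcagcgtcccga

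In WT cells the family was headed by *Ets1*, followed by *Ets2*, *Elf1*, *Elk4* and *Gabpa*, and *Erg* and *Spi1* lay at the bottom. *Ets1* ranked 31 among the genes of the table, *Ets2* 58, *Elf1* 84, *Elk4* 215 and *Gabpa* 316. *Fli1*, *Elf2* and *Elk3* ranked 698, 1263 and 1579. As the values behave as reads per length, these levels can be set side by side, although the lengths the authors used are not given. With the longest transcript, neighbours in this order differed beyond counting error at every step in WT but the one from *Elf2* to *Elk3*. The ratio of levels at that step was 1.16 with an interval from 0.937 to 1.44. With the median transcript length, *Ets2* would rest on approximately 269 reads in WT in place of 1127. *Spi1* would rest on 3 in place of 11. The intervals of these steps were not recomputed with that length. In *Cxxc1*-deficient cells the order was *Ets1*, *Elf1*, *Elk4*, *Ets2*, *Gabpa*, *Fli1*, *Elf2*, *Elk3*, *Erg* and *Spi1*, so *Ets2* had moved from the second to the fourth place. There the levels of *Elk4* and *Ets2*, of *Gabpa* and *Fli1*, of *Elf2* and *Elk3*, and of *Erg* and *Spi1* were not separable from each other at this depth.

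**Figure D1:**
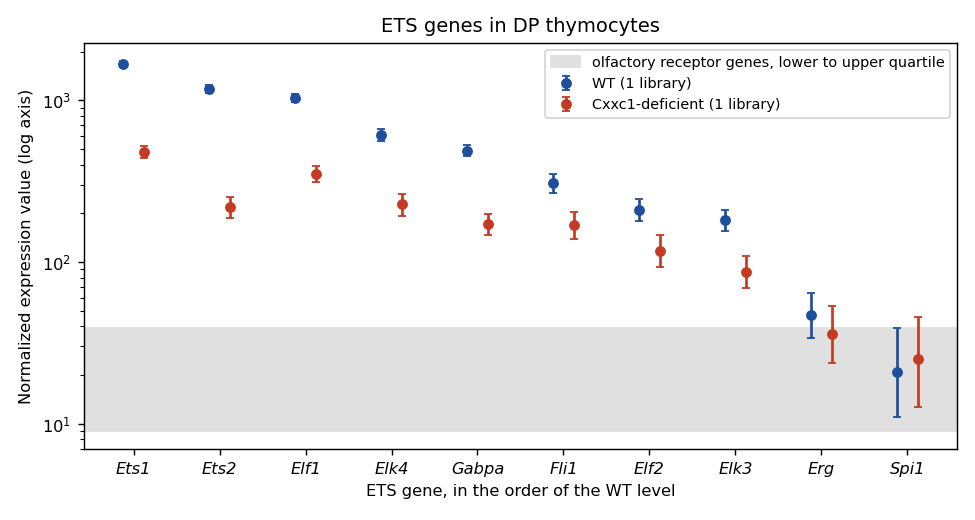
Normalized expression value (log axis) of the 10 ETS genes in the WT library (blue) and the Cxxc1-deficient library (red), with approximate 95% counting intervals. The grey band spans the quartiles of olfactory receptor genes. The 8 genes from Ets1 to Elk3 lie above it in both libraries, and Spi1 lies within it.

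As deposited, 9 of the 10 genes read lower in the deficient library, a count that went down to 6 under the scaling that moved the values most. Of the 20125 genes above 0 in either library, 59.9% were lower as deposited and 17.4% under that scaling. At least 2-fold lower were 6 of the 10, against 17.4% of all genes, and at least 2-fold higher were 0 of 10, against 5.89%. The median log2 ratio was -1.24 for the family members and -0.20 for all genes. Much of this distance goes with level. Among the 2472 genes averaging 100 or more over both libraries, 95.2% were lower and 56.8% at least 2-fold lower, with a median log2 ratio of -1.08, and the 8 T-lineage ETS genes all belong to this set. All 8 were lower and 6 of 8 at least 2-fold lower, with a median log2 ratio of -1.47. Since most genes of this level were lower, the members are described one by one below beside genes of their own band of mean expression.

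**Figure D2:**
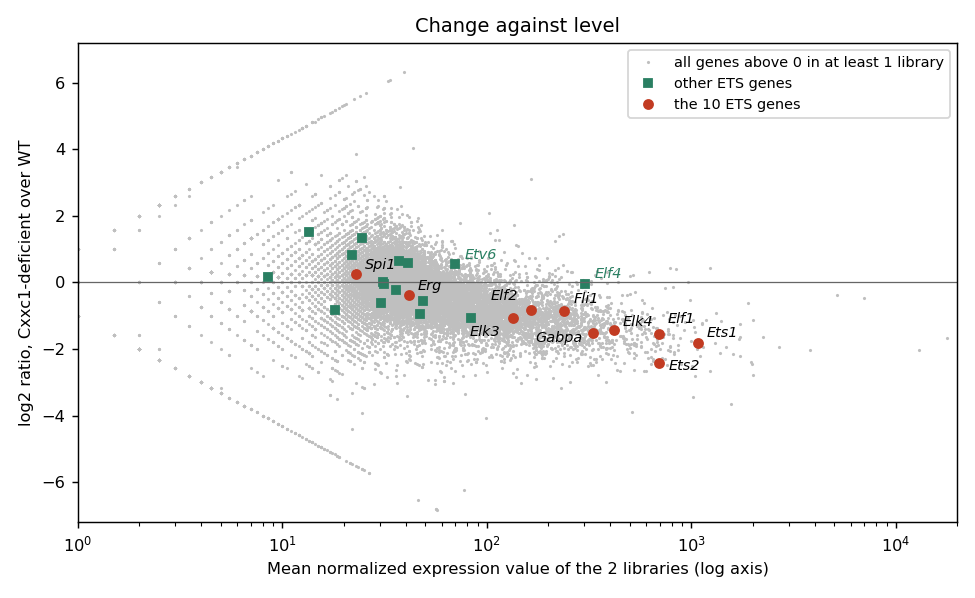
log2 ratio of Cxxc1-deficient over WT values against the mean value of both libraries (log axis) for all genes (grey), the 10 ETS genes (red) and 16 other ETS genes (green). The ratio declines with level across all genes. Ets2 lies toward the lower edge of the cloud and Elf4 near its upper edge.

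*Ets1* and *Ets2* are the founding pair of the family. *Ets1* is needed for normal thymocyte development and acts with RUNX1 at the T-cell receptor alpha enhancer, and *Ets2* is its close paralog. *Ets1* read 1677 in WT and 479 in deficient cells, 3.50-fold lower (interval 3.18 to 3.86). *Ets2* read 1175 in WT and 218 in deficient cells, 5.39-fold lower (interval 4.61 to 6.36), the largest fold of the 10. *Ets2* thus stood above *Elf1* in WT and below *Elf1* in the deficient library. The WT step was small, with a ratio of 1.14. Its interval of 1.05 to 1.24 uses the longest transcript and was not recomputed with the median length. Among the 164 genes averaging 500 or more, 84.1% were at least 2-fold lower and the median log2 ratio was -1.61. The log2 ratio of *Ets1* was -1.81, with 65 of these 164 genes at or below it, and that of *Ets2* was -2.43, with 15 of 164 at or below it. *Ets2* was 0.701 times *Ets1* in WT and 0.455 times *Ets1* in deficient cells. This relation between both genes shifted by a factor of 0.650, with an interval from 0.536 to 0.781, and does not depend on how the libraries are scaled.

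*Elf1*, *Elf2* and *Elf4* form the ELF branch. *Elf1* is highly expressed in lymphocytes and binds several T-cell gene promoters, *Elf2* (NERF) is a broadly expressed relative, and *Elf4* (MEF) is known for restraining T-cell proliferation. *Elf1* read 1033 in WT and 350 in deficient cells, 2.95-fold lower (interval 2.60 to 3.36). This was close to the middle of its band, with 88 of 164 genes at or below its log2 ratio of -1.56. *Elf2* read 210 and 117, 1.79-fold lower as deposited (interval 1.36 to 2.37) but higher in deficient cells once both libraries were given a shared median over genes averaging 100 or more. Its log2 ratio of -0.84 as deposited was smaller in size than the median reduction of its band, with 1004 of 1605 genes of mean 100 to under 200 at or below it. *Elf4*, one of the other ETS genes of the table, read 307 in WT and 299 in deficient cells, a ratio of 0.974 as deposited (interval 0.848 to 1.12), while its log2 ratio was 0.35, 0.52 and 0.96 under the 3 scalings that moved the values most. Of 703 genes with a mean from 200 to under 500, 30 had a ratio at least as high. Against *Elf1*, *Elf4* shifted from 0.297 times its level in WT to 0.854 times in deficient cells, a factor of 2.87 with an interval from 2.38 to 3.47. Against *Elf2* the factor was 1.75, with an interval from 1.28 to 2.39. *Elf4* lies on the X chromosome, where the log2 ratios of 99 genes averaging 100 or more had a median of -1.24, beside -1.09 for 2241 such autosomal genes. The part of the difference in Y-linked transcripts in the *Elf4* values was not tested.

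**Figure D3:**
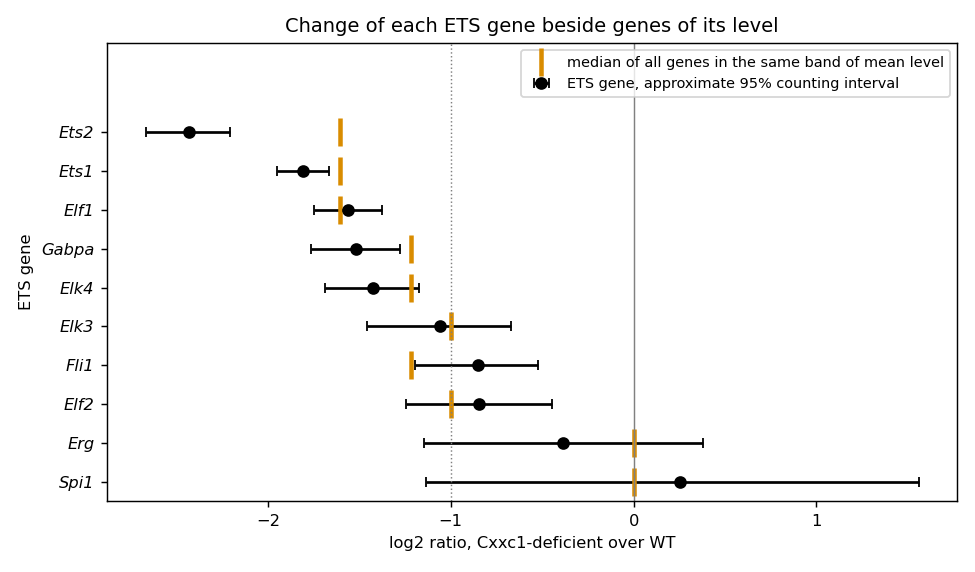
log2 ratio of Cxxc1-deficient over WT for each of the 10 ETS genes (points, with approximate 95% counting intervals) and the median over all genes in the same band of mean value (orange bars). The dotted line marks a 2-fold reduction. Ets2 is the farthest below its bar, and the interval of Fli1 lies just above its bar.

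*Gabpa* encodes the DNA-binding subunit of GABP, the ETS factor that acts as a complex with a beta subunit at many housekeeping promoters and at *Il7r*. It read 489 in WT and 171 in deficient cells, 2.86-fold lower (interval 2.42 to 3.40). In its band 197 of 703 genes were at or below its log2 ratio of -1.52. The genes of the beta subunits had smaller folds as deposited, a difference that was not tested. With the median transcript length the fold intervals overlap. They were 2.10 to 3.93 for *Gabpa*, 1.52 to 2.63 for *Gabpb1* and 1.68 to 2.63 for *Gabpb2*. The values below are with the longest transcript. *Gabpb1* read 366 in WT and 185 in deficient cells, 1.98-fold lower (interval 1.65 to 2.40), and *Gabpb2* read 343 and 164, 2.09-fold lower (interval 1.83 to 2.40).

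*Elk4* (SAP-1), *Elk3* (NET) and *Elk1* encode the ternary complex factors, which bind DNA beside SRF, and SAP-1 is known for its part in positive selection of DP cells. *Elk4* read 609 in WT and 227 in deficient cells, 2.68-fold lower (interval 2.26 to 3.22). *Elk3* read 181 and 87, 2.08-fold lower (interval 1.59 to 2.74). Both lay near genes of their level, with 253 of 703 genes at or below *Elk4* and 721 of 1605 at or below *Elk3*. The shift of *Elk3* against *Elk4* was a factor of 1.29, and its interval from 0.929 to 1.79 includes no shift. *Elk1* had a much lower level, with 62 in WT and 32 in deficient cells. *Srf* read 74 and 43 and its coactivator gene *Mkl1* 80 and 85. In deficient cells 34.4% of olfactory receptor genes were at or above *Elk1* and 18.5% at or above *Srf*, so both were near the background there.

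*Fli1* and *Erg* are paralogs that share most of their DNA-binding domain and act in blood stem cells, megakaryocytes and endothelium, with *Fli1* also expressed through T-cell development. *Fli1* read 307 in WT and 170 in deficient cells, 1.81-fold lower as deposited (interval 1.44 to 2.29) but higher once both libraries were given a shared median over genes averaging 100 or more. Its log2 ratio of -0.85 was above the median of -1.22 for its band, and 534 of 703 genes were at or below it. *Erg* read 47 in WT and 36 in deficient cells, a fold of 1.31 whose interval from 0.768 to 2.21 includes no difference, and its direction reversed under 3 of the 4 other scalings. Of the olfactory receptor genes, 10.1% were at or above *Erg* in WT and 27.6% in deficient cells, so *Erg* was little or not at all above the background. The 6 endothelial markers summed to 276 in WT and 233 in deficient cells, with none at 0 and *Pecam1* the highest at 119 and 66. Their medians of 32.5 and 37 lay within the quartiles of olfactory receptor genes. The part of endothelial cells in the values of *Erg* was not tested.

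*Spi1*, which encodes the myeloid and B-cell factor PU.1, was at the background in both libraries. It read 21 in WT and 25 in deficient cells, a ratio of 1.19 (interval 0.456 to 2.95). Olfactory receptor genes at or above it made up 55.4% in WT and 48.9% in deficient cells. The value rests on approximately 11 reads in each library, so no difference was detectable at this depth. The 9 myeloid markers summed to 340 and 309, and *Tyrobp* was listed at 0 in deficient cells. *Itgam* was the highest of them, with 101 and 107. The 6 B-cell markers summed to 196 and 167, with none at 0. The medians were 25 and 35 for the myeloid and 25 and 27 for the B-cell markers. All of these medians lay within the quartiles of olfactory receptor genes. A list of 12 other progenitor genes that are normally off in DP cells, among them *Lyl1*, *Gata2*, *Lmo2*, *Mef2c* and *Kit*, had a median of 30.5 in WT and 35 in deficient cells. As deposited, 5 of these 12 were lower and 7 higher, with 0 past 2-fold in either direction. Among all genes with a mean under 50, 47.8% were lower, with 9.75% past 2-fold downward and 8.22% past 2-fold upward. All of the list but *Bcl11a*, with 74 and 64, and *Mef2c*, with 39 and 61, belong to that band.

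The genome places these paralogs in pairs. In mm9, *Ets1* (chromosome 9, 32443806 to 32565405, plus strand) and *Fli1* (32229793 to 32348974, minus strand) are divergent neighbours 94.8 kb apart, and *Ets2* (chromosome 16, 95923682 to 95942658, plus strand) and *Erg* (95580776 to 95808200, minus strand) are divergent neighbours 115 kb apart, with 0 protein-coding genes between the partners in either pair. The members of a pair did not move by the same factor. *Fli1* was 0.183 times *Ets1* in WT and 0.355 times in deficient cells. Seen from *Ets1*, its level against *Fli1* shifted by a factor of 0.516 (interval 0.403 to 0.667). *Erg* was 0.04 times *Ets2* in WT and 0.165 times in deficient cells, a shift by 4.13 with an interval from 2.37 to 7.22, where *Erg* was near the background. The other members lie on chromosome 16 (*Gabpa*, 84835170 to 84864024), 14 (*Elf1*, 79881001 to 79982283), 3 (*Elf2*, 51059153 to 51144580), 10 (*Elk3*, 92710159 to 92773880), 1 (*Elk4*, 133904184 to 133929189) and 2 (*Spi1*, 90922547 to 90955913). Of all 10, 4 overlap a gene of the table on the opposite strand, and reads in the shared exons cannot be assigned if counting ignored strand. The shared part was 6.98% of the exonic bases of *Gabpa* (with *Atp5j*), 6.95% of *Elk3* (with *Cdk17*), 1.73% of *Elf1* (with *Wbp4*) and 1.53% of *Elk4* (with *Mfsd4*). *Atp5j* read 356 and 117, and *Cdk17* 520 and 192, both lower in deficient cells like their partners.

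The wider family was followed in 17 further ETS genes, of which 16 were in the table. As deposited, 8 were lower, 7 higher and 1 equal, and their median log2 ratio was -0.02. All but *Elf4*, *Etv3* and *Etv6* had a mean under 50, the band in which 47.8% of genes were lower, so the count sits near that share. Most lay within the range of the background. In both libraries 11 of the 16 were at or under the 95th percentile of olfactory receptor genes, among them *Etv1*, *Etv4*, *Etv5*, *Elf3*, *Elf5*, *Ehf* and *Spdef*, genes known mainly from epithelia and neurons. Above that level in both libraries were *Elf4* and *Etv6*. *Etv6* (TEL), a repressor required in blood stem cells, read 57 in WT and 83 in deficient cells, a ratio of 1.46 (interval 1.08 to 1.99 with the longest transcript, and 0.957 to 2.23, which includes no difference, with the median transcript length). Of 3657 genes with a mean from 50 to under 100, 119 had a ratio at least as high. *Etv3*, a repressor gene, had 113 in WT and 54 in deficient cells, 2.09-fold lower (interval 1.62 to 2.74). The 2 genes at least 2-fold higher, *Fev* with 14 and 35 and *Etv1* with 7 and 20, lay within the range of the background, and 8.22% of all genes with a mean under 50 were at least 2-fold higher too.

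Summed over the 26 ETS genes of the table, the values were 6615 in WT and 2705 in deficient cells, and the make-up of this sum, which no scaling alters, differed. *Ets1* gave 25.4% of it in WT and 17.7% in deficient cells, and *Ets2* gave 17.8% and 8.06%. *Elf1* went from 15.6% to 12.9%, whereas *Elf4* went from 4.64% to 11.1% and *Fli1* from 4.64% to 6.28%. *Ets1* kept the largest share in both libraries. The olfactory receptor background was not subtracted from these shares.

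**Figure D4:**
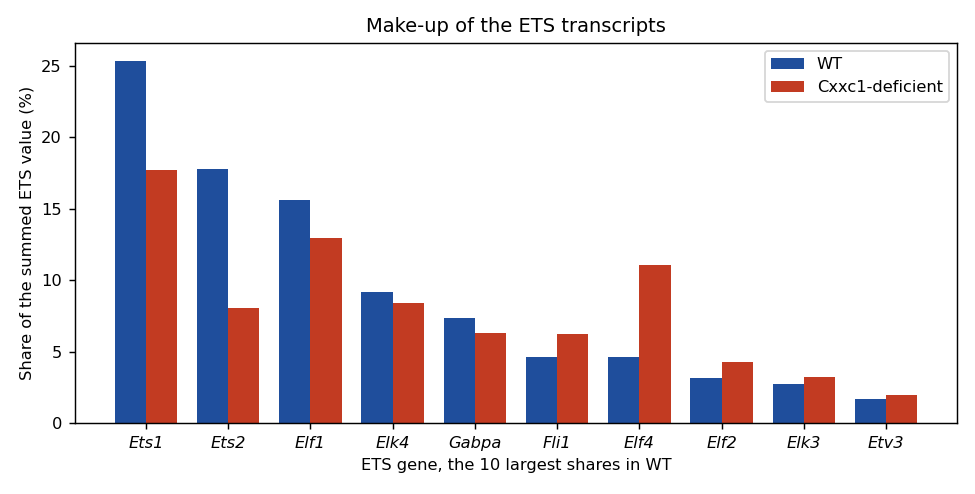
Share of the summed normalized value of the 26 ETS genes, in percent, for the 10 genes with the largest share in WT, in WT (blue) and Cxxc1-deficient (red) cells. Ets2 goes from 17.8% to 8.06% and Elf4 from 4.64% to 11.1%.

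Partners with which ETS factors bind were not reduced alike. *Cbfb*, which encodes the common partner of RUNX proteins, had 674 in WT and 165 in deficient cells, 4.08-fold lower (interval 3.30 to 5.12), and 47 of the 703 genes of its band were at or below its ratio. *Runx1* read 490 and 319, 1.54-fold lower (interval 1.37 to 1.72), and 93 of 703 genes had a ratio at least as high. *Runx3* read 46 and 73, a ratio of 1.59 with an interval of 1.05 to 2.39. With the median transcript length the interval was 0.354 to 5.76, which includes no difference. In WT 10.9% of olfactory receptor genes were at or above *Runx3*. The coactivator genes *Crebbp* and *Ep300* read 398 and 308, and 270 and 249.

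These differences depend on how the libraries are scaled, since a scaling moves all genes by the same factor. With the same 75th percentile in both libraries, the median log2 ratio of all genes was 0.19 in place of -0.20, and *Ets1*, *Ets2*, *Elf1*, *Gabpa* and *Elk4* were still at least 2-fold lower. With a shared median over genes averaging 100 or more, *Ets2* alone was still at least 2-fold lower, with a log2 ratio of -1.43. *Ets1*, *Elf1*, *Gabpa*, *Elk4* and *Elk3* then had log2 ratios from -0.81 to -0.06, and *Fli1* and *Elf2* were higher in deficient cells, at 0.14 and 0.15. Of all genes, 8.86% were at least 2-fold lower with the same 75th percentile and 3.51% with that shared median.

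**Figure D5:**
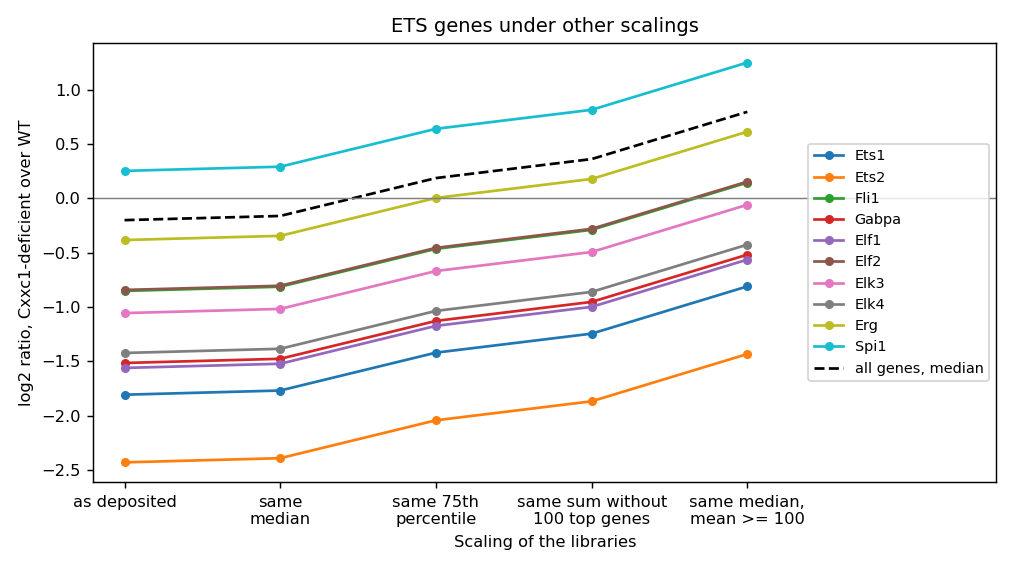
log2 ratio of Cxxc1-deficient over WT for the 10 ETS genes (lines) as deposited and under 4 other scalings of the libraries, with the median of all genes (dashed). The order of the genes is fixed by construction, and Ets2 stays at -1.43 or lower throughout.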

How the data were processed

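mRNA-seq of 1 WT and 1 *Cxxc1*-deficient sample of DP thymocytes was analysed. The authors sequenced reads of 50 bp, mapped them to mm9, kept those with a unique position and summarised them per gene in Partek Genomic Suite, and the submitters' processing notes list CASAVA 1.8.2 and Bowtie 1.0.1. The authors deposited whole numbers per gene, a normalized expression level with no unit named that is treated here as a score, and the gene annotation behind them is not given in the sources used here. Unique mapping lowers genes with near-identical copies.

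Ratios compare deposited values with a floor of 1 and a 2-fold threshold. The value of 1 read was estimated from genes between 50 and 400 bp long with up to 30 reads, and lay between 4.04 and 4.07 per kb in WT and between 4.66 and 4.73 in the deficient library. Intervals are 95% Clopper-Pearson intervals for ratios, exact Poisson intervals for levels and exact conditional intervals for shifts between 9 gene pairs. Lengths and positions are from GENCODE vM1 (NCBIM37, the build of mm9), where *Spi1* is listed as *Sfpi1*. Named genes were the members, 3 lists (other ETS genes, ETS partners, early progenitor genes) and markers of DP, myeloid, B, endothelial, erythroid and thymic epithelial cells. The 4 erythroid markers summed to 73 and 102, with *Hba-a1* at 0 in both, and the 5 epithelial markers to 126 and 113, with *Krt8* at 0 in *Cxxc1*-deficient cells. One result on the ETS partners is not reported here. Genes overlapping members were named for their position. Members and lists were chosen with earlier results of these data known, and expression bands from 100 upwards and gene pairs were added after seeing the data. The scripts were tested on simulated data. Calculations ran in Python 3.11.15 with scipy 1.17.1, numpy 2.4.6 and pandas 2.3.3, and plots were drawn with matplotlib 3.10.9.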

Additional observations from a re-analysis of the deposited data

How the results depend on the processing

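The values rest on 1 library per genotype, and the number of reads limits the low genes. With the median annotated transcript length in place of the longest, a choice made after seeing the data, the interval of *Ets2* widened to 3.90 to 7.63 and that of *Elk3* to 1.34 to 3.24, and intervals of *Erg* and *Spi1* still included no difference. Of 10 genes 9 were lower as deposited, after subtraction of the olfactory receptor median, with pseudocounts of 1 and 10, and when libraries shared their median over genes above 0. Of all genes, 59.9% were lower as deposited, 58.2% after that subtraction and 59.2% with the shared median over genes above 0. The count was 8 with the same 75th percentile, against 40.2% of all genes. It was also 8 with the same sum without the 100 top genes, against 32.5%. With a shared median over genes averaging 100 or more it was 6, against 17.4%. Of all 26 ETS genes, 17 were lower as deposited, beside the 59.9% of all genes.

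At least 2-fold lower were 6 of 10 as deposited, against 17.4% of all genes. They were 8 after subtraction of the olfactory receptor median, against 37.4% of all genes. With the same 75th percentile they were 5, against 8.86%. They were 2 with the same sum without the 100 top genes, against 6.54%. With a shared median over genes averaging 100 or more it was 1, against 3.51%. At a 3-fold threshold as deposited 2 were lower, and the share of all genes at that threshold was not computed. At least 2-fold higher as deposited were 0 of the 10 and 2 of all ETS genes, against 5.89% of all genes. With a shared median over genes averaging 100 or more it was 1 (*Spi1*), and the share of all genes under that scaling was not computed. The median log2 ratio was -1.24 as deposited, -0.85 with the same 75th percentile, -0.68 with equal sums without the 100 top genes, -0.24 with a shared median over genes averaging 100 or more, and -0.48 over all ETS genes. The direction reversed for *Fli1* (0.14) and *Elf2* (0.15) with the scaling to a shared median over genes averaging 100 or more. It reversed for *Erg* with the same 75th percentile (0.0024), the same sum without the 100 top genes (0.18) and the scaling just named (0.61). These values follow from the factor of each scaling, which shifted the median over all genes by 0.04, 0.39, 0.56 and 0.997 (log2), in the order of the plot of scalings. The log2 ratios of single genes kept their direction and stayed within their counting interval in 45 of 70 recomputed values. No paired analysis was possible because there is only 1 library of either genotype and nothing was tested.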
